A study of Mus musculus with 12 samples.

Results

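Ranbp10 and 9 further genes for subunits of the CTLH ubiquitin ligase were followed in MTEC1 cells with and without PAMK. All 10 genes were found by name among the 21771 genes of the mRNA table. They held 24 of its 59215 transcripts and 17 of the 42870 transcripts in the lncRNA table. Ranbp10 was chosen by its own measured level, which was near 0 in the 3 PAMK libraries and not in the 3 control libraries, so its values are given as a description with no test. The other 9 genes were picked for belonging to the same complex, with earlier results of these data known.

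MTEC1 is a mouse cell line described in the labels as medullary thymic epithelial with a WT genotype. PAMK stands for polysaccharide of Atractylodes macrocephala Koidz, a medicinal plant. The treated group received PAMK at 50 µg/ml for 12 h, and the control group, by the series' design text, was cultured for 6 h, so treatment and culture time cannot be told apart if that text is right. Each group had 3 total RNA libraries, and the labels do not say whether they came from separate cultures, so the p-values measure the spread between these libraries, which may be technical. All cells were grown in DMEM with fetal bovine serum.

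The CTLH complex is a multi-subunit E3 ubiquitin ligase, the mammalian counterpart of the GID complex that degrades gluconeogenic enzymes in yeast. Its RING subunits pass ubiquitin from an E2 enzyme to the target, scaffold subunits hold the core together, an adaptor carries a receptor for targets, and further subunits join cores into larger assemblies. Loss of Maea, one of the RING subunits, disturbs the maturation of red blood cells in mice.

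Across the 6 libraries, deposited values per library summed to between 133684 and 145879 FPKM in the mRNA table, and the number of reads behind them is unknown. FPKM is a level per transcript length and per sequencing depth, and it is the unit of every level below unless another is named. Pearson correlations between libraries over the 9781 genes tested, on log2(FPKM + 1), were 0.886 to 0.894 within the PAMK group, 0.881 to 0.887 within the control group and 0.880 to 0.891 between the groups. The median over the tested genes was 4.35 to 4.43 FPKM in PAMK libraries and 4.03 to 4.09 FPKM in control libraries. The main fit and the overlap counts below were not scaled for this shift. Of 6 general epithelial markers, 0 had a mean of at least 0.5 FPKM, and Epcam, Krt5 and Krt14 were listed at 0 in every library. The 6 markers summed to 0.151 to 0.323 FPKM in PAMK libraries and 0.189 to 0.256 FPKM in control libraries. Of 5 thymic epithelial markers 2 reached that mean, Ly75 and Relb, and Aire was listed at 0 throughout. Foxn1 was at most 0.0206 FPKM and Psmb11 at most 0.0242 FPKM in any library. Relb had 2.94, 5.35 and 0.261 FPKM in PAMK libraries, against 0.503, 0.527 and 0.509 FPKM in control libraries. The 5 markers summed to 1.18 to 7.35 FPKM in PAMK libraries and 2.45 to 2.64 FPKM in control libraries. Mesenchymal markers summed to 157 to 319 FPKM in PAMK libraries and 144 to 255 FPKM in control libraries. These sums came mostly from Vim and Col1a1, and from Col1a2 in PAMK 2, control 2 and control 3 (61.7 to 91.2 FPKM). Col1a2 was listed at 0 in PAMK 1 and PAMK 3 and at 0.0143 FPKM in control 1. Of the 6 mesenchymal markers, 4 had a mean of at least 0.5 FPKM. Pdgfrb was at most 0.368 FPKM and Thy1 at most 0.0335 FPKM in any library. The defining markers of an epithelial cell were thus absent or close to 0. Erythroid markers, checked because the complex is known from red cells, summed to at most 0.225 FPKM in PAMK libraries and at most 0.341 FPKM in control libraries. Haematopoietic markers summed to 1.38 to 1.64 FPKM in PAMK libraries and 0.410 to 0.910 FPKM in control libraries, nearly all from Cd68, with Cd3e and Itgam at 0. Their part in the results was not tested.

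RANBP10 is a scaffold subunit of the complex and a close relative of RANBP9, and in mouse megakaryocytes it is known to bind beta-tubulin. Ranbp10 was listed at 0.0605, 0.0773 and 0.0614 FPKM in PAMK 1, 2 and 3, against 8.62, 9.03 and 9.31 FPKM in control 1, 2 and 3. Every PAMK library lay far below every control library, as did those of 5.40% of all genes tested by any margin, from which nothing is read here because this contrast chose the gene. The means were 0.0664 ± 0.00945 FPKM with PAMK and 8.98 ± 0.346 FPKM in controls (SD, n = 3 each). The difference of the mean log2 FPKM, with no pseudocount, was -7.09, and the control mean was 135 times the PAMK mean. Both figures rest on PAMK values near 0 at unknown depth, so their size is uncertain. On the log2(FPKM + 1) scale the difference was -3.23. In a bulk sample, fewer cells that express a gene and less RNA per cell cannot be told apart.

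The Ranbp10 sum rests on a single transcript, ENSMUST00000239468, on the minus strand of chromosome 8 at 105768308 to 105827350 in the deposited coordinates. The lncRNA table lists 1 noncoding Ranbp10 transcript, ENSMUST00000212856, at 105804527 to 105827205, so that both start within 145 bases of each other on that strand. This noncoding transcript was listed at 0.490, 0.529 and 0.451 FPKM in PAMK libraries, against 0.986, 0.366 and 0.343 FPKM in control libraries. Those groups overlapped, with the highest value in control 1. The 2 Ranbp10 transcripts therefore stood in opposite order in the groups: the coding one was 0.123 to 0.146 times the noncoding one in PAMK libraries and 8.74 to 27.2 times the noncoding one in control libraries. With both added, Ranbp10 had 0.556 ± 0.0476 FPKM with PAMK and 9.55 ± 0.137 FPKM in controls (SD, n = 3 each). No transcript of another gene in either table overlapped the Ranbp10 span.

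The neighbouring genes on chromosome 8 overlapped between the groups. The 3 nearest tested genes on each side were Pard6a, Enkd1 and Gfod2 before it, and Cenpt, Thap11 and Nutf2 after it, at gaps of 9644 to 64812 bases. Gfod2, the nearest, had 2.34, 1.99 and 2.28 FPKM in PAMK libraries, against 2.14, 2.17 and 2.16 FPKM in control libraries. Cenpt, a kinetochore protein gene and the nearest on the other side, had 1.47, 0.502 and 0.904 FPKM in PAMK libraries, against 0.837, 0.669 and 0.909 FPKM in control libraries. The groups overlapped for all 6 neighbours, and 0 of them passed in limma (adjusted p 0.877 to 0.995, adjusted over the 9781 genes). Thap11 and Nutf2 averaged 24.3 ± 0.367 and 10.4 ± 5.16 FPKM with PAMK, and 23.6 ± 2.07 and 9.89 ± 4.01 FPKM in controls (SD, n = 3 each).

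**Figure D1:**
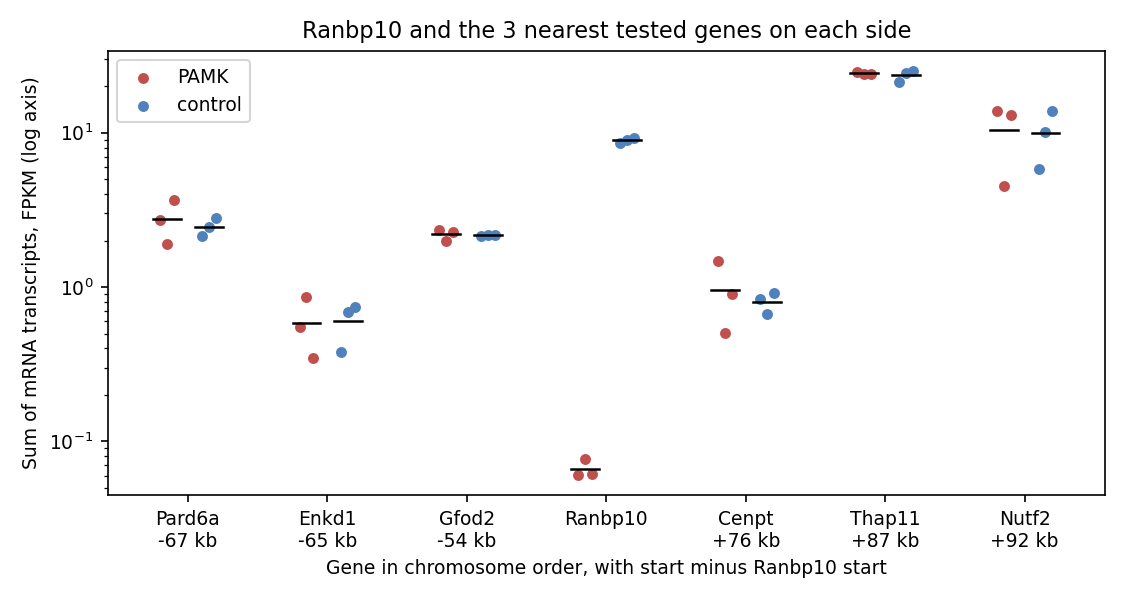
Summed mRNA FPKM (log axis) of Ranbp10 and the 3 nearest tested genes on each side, in chromosome order, with points for the 3 PAMK libraries left of the 3 control libraries and a bar at each mean. The PAMK points lie apart from the control points for Ranbp10, at 0.0605 to 0.0773 against 8.62 to 9.31 FPKM, and the groups overlap for the other 6 genes.

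Values near 0 beside values well above 0 also occurred among libraries of the same group in this table. With limits of 0.1 and 5 FPKM, chosen after the data were seen, 134 genes had at least 1 library below the lower limit and at least 1 at or above the upper limit within the PAMK libraries, and 135 genes did within the control libraries. Together these were 234 genes, 2.39% of the 9781 tested. These counts ask for only 1 low and 1 high library in a group, a looser pattern than the full split by group described for Ranbp10. What sets these differences between libraries of a group was not tested.

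Genes of most similar profile were found by the root mean square difference from Ranbp10 over the 6 libraries, each gene taken as log2(FPKM + 1) minus its own mean. The closest 5 were Nfe2l1 (0.23), Glrx (0.29), Ilvbl (0.34), Ascc3 (0.63) and Mrm3 (0.64), against a median of 1.66 over the tested genes. Ascc3, a helicase of the ASC-1 complex, had 3.80, 2.06 and 1.82 FPKM in PAMK libraries, against 11.02, 15.5 and 15.1 FPKM in control libraries. Mrm3, a methyltransferase of mitochondrial ribosomal RNA, had 0.0392, 0.00796 and 0.0405 FPKM in PAMK libraries, against 3.77, 4.95 and 2.05 FPKM in control libraries. All 5 were lower with PAMK with no overlap, which the choice by profile fixes.

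The other scaffold subunit gene, Ranbp9, overlapped between the groups. Its mRNA transcripts summed to 10.5, 9.58 and 4.91 FPKM in PAMK libraries, against 7.72, 9.73 and 8.72 FPKM in control libraries. PAMK 3 was the lowest library. The limma difference was -0.11 ± 0.280 (SE) on the log2(FPKM + 1) scale, with a 95% interval of -0.82 to 0.59 and an adjusted p of 0.902. With noncoding transcripts added it was -0.35 (limma adjusted p 0.609). In control cells the paralogs stood at like levels by mRNA transcripts, and Ranbp10 made up 48.1% to 52.8% of their joint FPKM. In PAMK cells that share was 0.573% to 1.24%. The joint level was 10.5, 9.66 and 4.97 FPKM in PAMK libraries, against 16.3, 18.8 and 18.03 FPKM in control libraries, a gap that Ranbp10 supplies and that is therefore described and not tested. With noncoding transcripts added, Ranbp9 had 14.5, 16.4 and 14.5 FPKM in control libraries, against 9.61, 9.39 and 9.65 FPKM for Ranbp10. The like levels thus hold for the mRNA transcripts only.

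**Figure D2:**
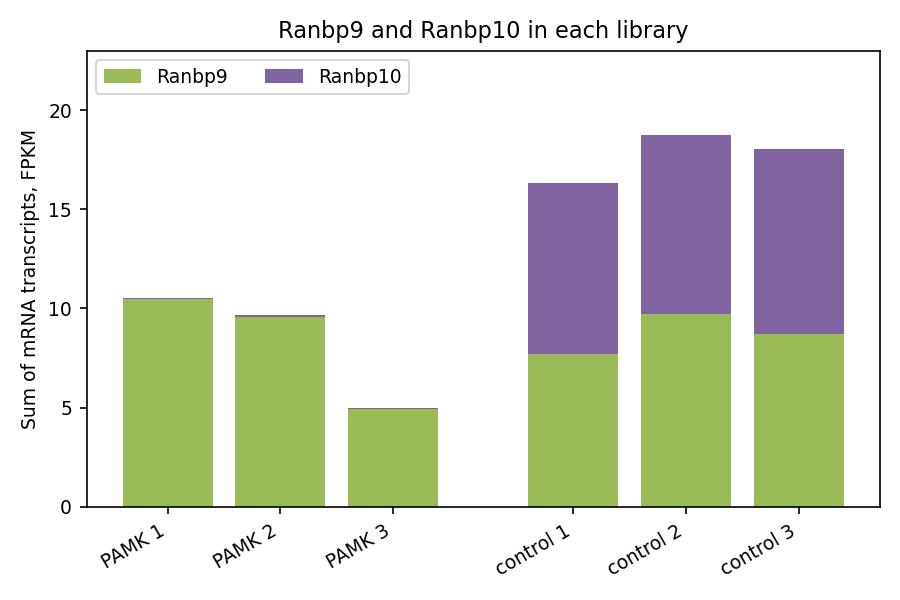
Stacked bars of the summed mRNA FPKM of Ranbp9 and Ranbp10 in each library, PAMK libraries on the left. Ranbp10 is 48.1% to 52.8% of the bar in control libraries and a sliver of 0.573% to 1.24% in PAMK libraries, while Ranbp9 overlaps between the groups.

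Of the 9 subunit genes other than Ranbp10, all were tested and 0 passed in limma at an adjusted p of 0.05, against 0.0716% of all genes tested (7 of 9781). At an unadjusted p under 0.05 it was also 0 of the 9, against 10.0% of all genes, although Maea had an unadjusted p of 0.0297 in limma (adjusted p 0.493) without control 2. The groups overlapped for all 9, while 19.5% of all genes had groups that did not overlap. Their log2 differences ran from -0.37 to 0.17 with 3 above and 6 below 0 (1 above and 8 below after scaling to equal medians or quantiles, 6 above and 3 below without PAMK 2), and the median was -0.08, against 0.06 over all genes tested. A p that misses the threshold does not show equal levels, and the 95% intervals say how far each gene could differ.

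**Figure D3:**
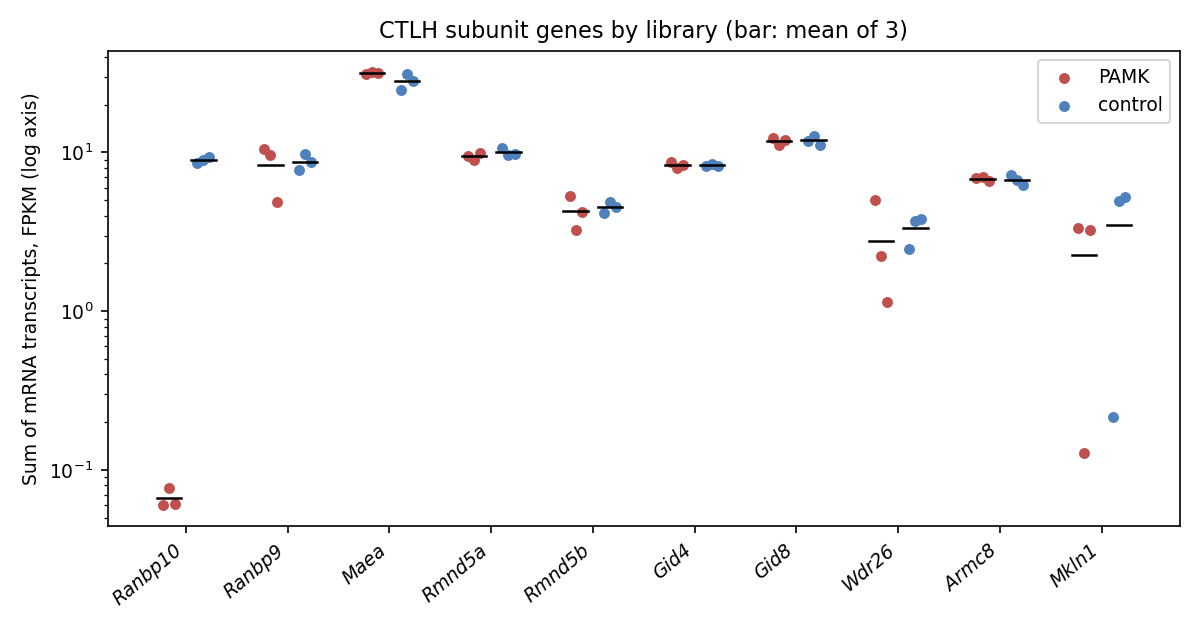
Summed mRNA FPKM (log axis) of the 10 genes in each library, PAMK points left of control points, with a bar at each mean of 3. Ranbp10 is split between the groups, Mkln1 has 1 low library in each group (0.128 in PAMK 2 and 0.215 in control 1), and the other 8 genes overlap between the groups.

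Among the RING subunits, which carry the catalytic activity, Maea had the highest level of the 10 genes in both groups. Maea had 31.1, 31.96 and 31.7 FPKM in PAMK libraries, against 24.9, 31.2 and 28.4 FPKM in control libraries. The 3 PAMK values lay close together and control 2 fell among them, and the difference was 0.17 ± 0.0898 (SE), with an interval of -0.06 to 0.39 and an adjusted p of 0.583, the smallest of the 9. After scaling to equal medians the Maea difference was 0.06 (limma adjusted p 0.838). Rmnd5a, the RING partner of Maea, had 9.57, 9.02 and 9.88 FPKM in PAMK libraries, against 10.7, 9.62 and 9.83 FPKM in control libraries, with an interval of -0.27 to 0.11. Its paralog Rmnd5b had 5.36, 3.24 and 4.19 FPKM in PAMK libraries, against 4.17, 4.91 and 4.52 FPKM in control libraries, with an interval of -0.53 to 0.35. Rmnd5a was above Rmnd5b by FPKM in every library, at 9.49 ± 0.437 against 4.26 ± 1.06 FPKM with PAMK and 10.1 ± 0.602 against 4.53 ± 0.373 FPKM in controls (SD, n = 3 each).

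Gid8, a small core subunit that bridges the scaffold and the RING pair, was second in level in both groups. It had 12.3, 11.1 and 11.9 FPKM in PAMK libraries, against 11.9, 12.7 and 11.2 FPKM in control libraries. The groups overlapped throughout, and the interval of the difference was -0.21 to 0.18. Armc8, the adaptor that holds the target receptor, had 6.95, 7.02 and 6.58 FPKM in PAMK libraries, against 7.26, 6.67 and 6.28 FPKM in control libraries, with an interval of -0.19 to 0.23. Gid4, the receptor that recognises the amino end of target proteins, had 8.67, 7.93 and 8.39 FPKM in PAMK libraries, against 8.20, 8.49 and 8.19 FPKM in control libraries. Its interval of -0.17 to 0.18 was the narrowest of the 9. The intervals of Gid8, Rmnd5a, Gid4 and Armc8 all lay between -0.27 and 0.23 on this scale.

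Gid8 has 2 listed mRNA transcripts with starts 2429 bases apart, and the bases before each are shown because most of the Gid8 level was assigned to the downstream start. Transcript ENSMUST00000078687, from the downstream start, had 11.5, 8.65 and 10.9 FPKM in PAMK libraries, against 11.1, 11.5 and 10.9 FPKM in control libraries. ENSMUST00000029090, from the upstream start, had 0.810, 2.44 and 1.08 FPKM in PAMK libraries, against 0.781, 1.19 and 0.314 FPKM in control libraries. The downstream transcript held 78.0% to 93.4% of the Gid8 sum with PAMK and 90.6% to 97.2% in controls. Neither transcript passed in limma (adjusted p 0.827 and 0.799). The transcripts end within 3 bases of each other, and how reads in shared exons were divided was not tested.
The sequences are from RefSeq, build GRCm38.p6, plus strand of chromosome 2, 5′ to 3′, and end at the base before the deposited start. Capitals mark a GC box (GGGCGG on either strand).
Upstream start, chr2:180709976-180710116: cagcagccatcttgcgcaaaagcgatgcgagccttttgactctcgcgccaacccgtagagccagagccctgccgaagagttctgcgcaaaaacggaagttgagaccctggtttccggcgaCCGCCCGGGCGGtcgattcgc
Downstream start, chr2:180712296-180712545: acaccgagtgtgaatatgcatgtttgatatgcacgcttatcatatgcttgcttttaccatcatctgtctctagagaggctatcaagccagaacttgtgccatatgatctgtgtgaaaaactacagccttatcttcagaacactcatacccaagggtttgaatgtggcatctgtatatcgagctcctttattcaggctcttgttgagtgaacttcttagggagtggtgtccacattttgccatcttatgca
The upstream sequence of 141 bases held 16 CpG pairs and a G and C content of 61.7%. Of 32851 RefSeq promoter windows cut to their first 141 bases, 6.30% held at least as many CpG pairs. The RefSeq span of Gid8 begins at 180710122, near the deposited upstream start of 180710117. RefSeq gave 3 promoter windows for Gid8, and those around the RefSeq starts 180710226 and 180712546 were used here. Relative to these, the deposited start minus the RefSeq start was -109 bases for the upstream start and 0 for the downstream one. Windows cut to 141 bases likewise stop short of their RefSeq starts, so they are not the bases directly before those starts. The downstream sequence of 250 bases held 3 CpG pairs and 42.0% G and C, and 71.0% of windows of that length held at least as many. The GC box was found at 2 adjacent places, 1 on each strand, in the upstream sequence and in 15.4% of windows of that length. On either strand neither sequence held CCAAT, which was found in 18.8% of windows of 141 bases and 33.8% of windows of 250 bases. Neither held TATAAA, found in 6.93% and 12.4% of windows of those lengths. Neither held CCGGAAG, found in 2.32% and 6.91%. The downstream sequence also held no GC box, against 32.7% of windows. A match is a description of letters and not of a bound site. Promoter windows were matched for 8 of the 10 genes, and not for Ranbp10 or Maea.

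Mkln1 and Wdr26 encode the subunits that join cores into larger assemblies, and WDR26 also takes part in target binding. They were the least even of the 9 genes. Mkln1 had 3.35, 0.128 and 3.26 FPKM in PAMK libraries, against 0.215, 4.93 and 5.28 FPKM in control libraries. PAMK 2 and control 1 were each far below the other libraries of their group, so the low values did not follow treatment, and the interval of -2.60 to 1.86 is wide. The noncoding Mkln1 transcript ENSMUST00000141045, on chromosome 6 at 31468120 to 31492693 within the Mkln1 span, had 1.60, 8.35 and 9.06 FPKM in PAMK libraries, against 12.8, 1.74 and 1.03 FPKM in control libraries. It was high in both libraries where the mRNA was low, and also in PAMK 3. It made up 16.3% to 98.5% of the joint level of the mRNA transcripts and itself over the 6 libraries.

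Wdr26 had 4.99, 2.21 and 1.14 FPKM in PAMK libraries, against 2.47, 3.69 and 3.82 FPKM in control libraries, with an interval of -1.34 to 0.72. Its transcripts changed places between libraries. ENSMUST00000162963 had 4.48, 2.09 and 0.805 FPKM in PAMK libraries, against 2.46 FPKM in control 1 and the placeholder in control 2 and 3. ENSMUST00000159290 had 0.0163, 0.0152 and 0.0314 FPKM in PAMK libraries, against 0.00805, 2.01 and 1.25 FPKM in control libraries, and ENSMUST00000237749 had 0.492, 0.0531 and 0.151 FPKM in PAMK libraries, against 0.00865, 1.64 and 2.57 FPKM in control libraries. Control 1 thus stood with the PAMK libraries and apart from control 2 and 3 in all 3 transcripts. Their limma adjusted p were 0.760, 0.671 and 0.761. Without control 1, ENSMUST00000159290 had an unadjusted p of 0.00124 and an adjusted p of 0.144.

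Rmnd5a also showed an exchange in control 1 that the gene sum hides. Its full-span transcript ENSMUST00000002292 had 5.19, 4.95 and 5.20 FPKM in PAMK libraries, against 2.81, 5.63 and 5.98 FPKM in control libraries. The shorter ENSMUST00000149415 had 4.38, 4.06 and 4.68 FPKM in PAMK libraries, against 7.94, 3.98 and 3.85 FPKM in control libraries. The full-span share was 52.6% to 54.9% in PAMK libraries, and 26.1% in control 1 against 58.6% and 60.9% in control 2 and 3. Maea, Ranbp9, Rmnd5b and Gid4 each had 1 leading mRNA transcript that set the gene sum.

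**Figure D4:**
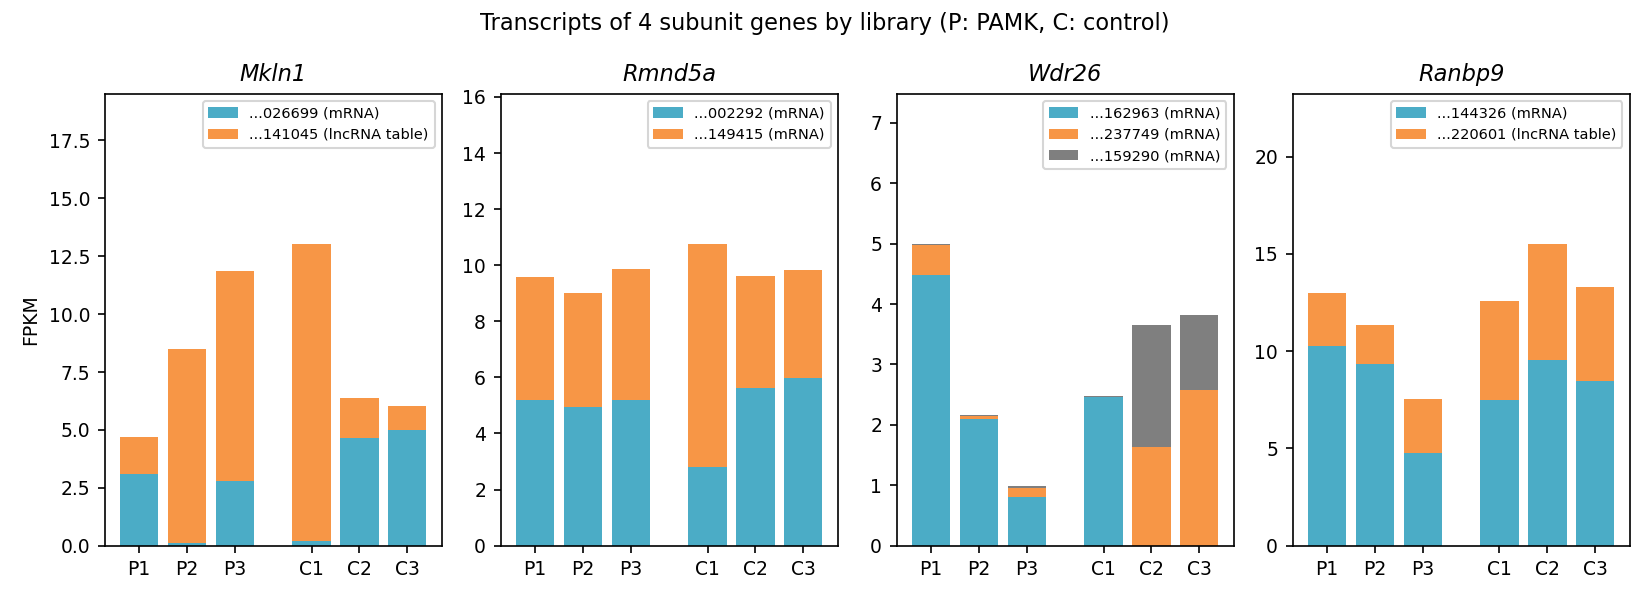
Stacked FPKM of the leading transcripts of Mkln1, Rmnd5a, Wdr26 and Ranbp9 by library (P, PAMK; C, control; the last 6 digits of each transcript name and its table are in the key). Control 1 differs from control 2 and 3 in Mkln1, Rmnd5a and Wdr26, and the lncRNA table transcript of Ranbp9 is lower in all 3 PAMK libraries.

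Over single transcripts, 14 of the 23 mRNA transcripts of the 9 genes were tested, and 0 passed in limma, against 0.204% of all mRNA transcripts tested (30 of 14728). At an unadjusted p under 0.05 it was 0 of 14, against 7.48%, but 3 of 14 without control 1 and 1 of 14 without control 2 or with the replicate number as a block. The groups overlapped for all 14, against 15.9% of all transcripts with no overlap. Of the 16 noncoding transcripts of the 9 genes, 15 were tested and 0 passed, against 0.0380% of all noncoding transcripts tested (9 of 23670), with 1 at an unadjusted p under 0.05 (2 without control 2 or control 3), against 5.76%, and 1 whose groups did not overlap, against 11.3%. That 1, the same transcript in both counts, was Ranbp9 transcript ENSMUST00000220601, on the minus strand of chromosome 13 at 43402817 to 43408028, towards the 3′ end of the gene. It had 2.71, 1.99 and 2.76 FPKM in PAMK libraries, against 5.09, 5.93 and 4.85 FPKM in control libraries. Every PAMK value lay below every control value, as in 4.23% of all noncoding transcripts tested. The difference on the log2(FPKM + 0.1) scale, 1 of 15 examined, was -1.07 ± 0.202 (SE), lower in 3 of 3 PAMK libraries, with an unadjusted p of 0.00150 and a limma adjusted p of 0.425 (0.414 to 0.934 over the alternatives), so it did not pass. The other Ranbp9 noncoding transcript, ENSMUST00000220529, had 1.10 ± 0.358 FPKM with PAMK and 1.13 ± 0.511 FPKM in controls (SD, n = 3 each).

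**Figure D5:**
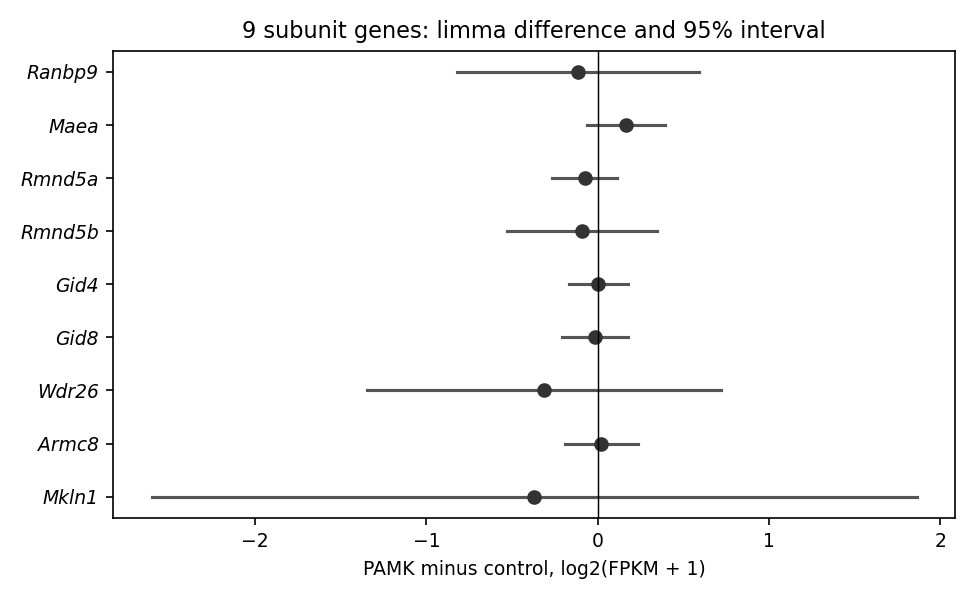
Points give the limma difference, PAMK minus control, on the log2(FPKM + 1) scale for the 9 genes other than Ranbp10, and lines give its 95% interval. All 9 intervals include 0, and those of Gid4, Gid8, Rmnd5a and Armc8 are narrow while that of Mkln1 runs from -2.60 to 1.86.

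With PAMK the order of levels, by mean FPKM, was Maea, Gid8, Rmnd5a, Gid4, Ranbp9, Armc8, Rmnd5b, Wdr26, Mkln1 and Ranbp10. The ranges of Gid4 and Ranbp9, of Ranbp9 and Armc8, of Rmnd5b and Wdr26 and of Wdr26 and Mkln1 overlapped, and the other neighbours did not. In controls Ranbp10 was the fourth, and the order was Maea, Gid8, Rmnd5a, Ranbp10, Ranbp9, Gid4, Armc8, Rmnd5b, Mkln1 and Wdr26. There the ranges of Ranbp10 and Ranbp9, of Ranbp9 and Gid4, of Rmnd5b and Mkln1 and of Mkln1 and Wdr26 overlapped. Summed over the 9 genes other than Ranbp10, the level was 82.0 to 92.8 FPKM in PAMK libraries and 77.5 to 92.0 FPKM in control libraries.

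A list of 13 CTLH-linked genes was read in the same fit. It held the E2 enzyme Ube2h, the WDR26 partner Ypel5, its relative Ypel3 and reported targets such as Hbp1 and Hmgcs1. It also held genes for gluconeogenic enzymes and malate dehydrogenases, kinds of enzyme that the GID complex degrades in yeast. Listing by kind does not make each, such as the mitochondrial Mdh2, a counterpart of a yeast target. Of 10 tested members 0 passed in limma in either direction, against 0.0716% of all genes. At an unadjusted p under 0.05 there were 1 higher and 1 lower, against 714 higher and 265 lower of all 9781 genes (10.0%). The median log2 difference was 0.08, against 0.06 over all genes. Fbp1, Fbp2 and Pck1, gluconeogenic enzymes, were listed at 0 in all 6 libraries. Mdh2, mitochondrial malate dehydrogenase, had 182, 176 and 167 FPKM in PAMK libraries, against 137, 143 and 157 FPKM in control libraries, with a limma adjusted p of 0.339. Its log2 difference was 0.26, and 0.15 after scaling to equal medians (limma adjusted p 0.466). Ypel3 had 1.61, 1.12 and 1.58 FPKM in PAMK libraries, against 1.72, 2.49 and 2.56 FPKM in control libraries, with a limma adjusted p of 0.498. Hmgcs1, a cholesterol synthesis enzyme, had 3.55 ± 1.94 FPKM with PAMK and 6.63 ± 2.47 FPKM in controls (SD, n = 3 each). Nmnat1, a nuclear NAD synthesis enzyme, had 1.45 ± 0.157 FPKM with PAMK and 1.18 ± 0.114 FPKM in controls (SD, n = 3 each). The groups did not overlap for 3 of the 10 members, Mdh2 and Nmnat1 with PAMK higher and Ypel3 with PAMK lower, against 14.1% of all genes with PAMK higher and 5.40% with PAMK lower. Ypel5 had 4.06 ± 0.178 FPKM with PAMK and 4.09 ± 1.11 FPKM in controls. Ube2h had 0.348, 14.6 and 1.36 FPKM in PAMK libraries, against 1.001, 13.2 and 0.502 FPKM in control libraries. PAMK 2 and control 2 were both far above the other libraries, so the E2 gene varied within both groups. These libraries carry the same replicate number. With that number as a block the SE of the Ube2h difference was 0.299, against 1.29 without it (limma adjusted p 0.948 and 0.988).

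Genes of the Ran cycle, which sets the direction of transport through nuclear pores, were read because RANBP10 was named as a Ran-binding protein. Of 13 names 12 were in the table and 9 were tested, with 0 past the threshold in limma, against 0.0716% of all genes. The name not found, Mog1, is an alias of Rangrf, which is also on the list and was listed at 0 throughout. At an unadjusted p under 0.05 there were 1 higher and 0 lower, against 714 higher and 265 lower of all 9781 genes (10.0%). The median log2 difference was 0.26, against 0.06 over all genes. Ran itself had 318, 298 and 321 FPKM in PAMK libraries, against 319, 336 and 346 FPKM in control libraries, with a limma adjusted p of 0.583. Rangap1, the GTPase activator of Ran, had 15.5, 4.82 and 5.69 FPKM in PAMK libraries, against 1.92, 2.53 and 1.003 FPKM in control libraries. All 3 PAMK values were the higher ones, and the limma adjusted p was 0.378. The log2 difference of Rangap1 was 1.65, and 0.65 with noncoding transcripts added (limma adjusted p 0.509). Ranbp2, a nuclear pore protein, had 22.2 ± 0.459 FPKM with PAMK and 20.6 ± 0.375 FPKM in controls (SD, n = 3 each; limma adjusted p 0.531). Its log2 difference was 0.11, and 0.00074 after scaling to equal medians (limma adjusted p 0.997). The groups did not overlap, with PAMK higher, for 3 of the 9 members, against 14.1% of all genes tested. These were Rangap1, Ranbp2 and Cse1l, an exporter of importin alpha that is named here after its values were seen. Cse1l had 37.2, 37.0 and 38.5 FPKM in PAMK libraries, against 36.7, 35.1 and 1.15 FPKM in control libraries (limma adjusted p 0.715). Only control 3 lay far below the PAMK values of Cse1l. Ranbp1 had 0.169, 73.2 and 0.0354 FPKM in PAMK libraries, against 46.5, 28.6 and 32.7 FPKM in control libraries. PAMK 2 alone of its group was high, and Ranbp1 passed without that library (log2 difference -5.04, limma adjusted p 0.0349) and not with it (adjusted p 0.614).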

How the data were processed

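Total RNA was depleted of ribosomal RNA and sequenced as paired reads, per the labels' protocols. Tools listed in the submitters' processing notes are HISAT2, StringTie, edgeR, cutadapt and FastQC, and the sources used here give no version, genome build, annotation or library strand. The deposited values, called normalized counts in the file headers, were taken as FPKM from their layout and unequal column totals. This unit is inferred, and depth per library is unknown. Positions of 20160 among 20162 genes overlapped those of their namesakes on the same chromosome in RefSeq (GRCm38.p6), those of all 10 genes described here included.

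The placeholder of 0.0001 FPKM was set to 0 and mRNA transcripts were summed by gene name. A gene or mRNA transcript averaging 0.5 FPKM or more over the libraries was tested as log2(FPKM + 1), and an lncRNA table transcript averaging 0.1 FPKM or more as log2(FPKM + 0.1), so differences of low genes are understated. Ranbp10 passed this filter through the control libraries. Two-sided tests used limma (version 3.58.1, under R 4.3.3) with its trend option, and p-values were adjusted by Benjamini and Hochberg's method over each whole table, with a threshold of 0.05. No p-value adjusted over a list alone is given. Intervals are 95% intervals from that fit. Only the limma fit was tried on simulated data, with normal noise on log2 values, and not the placeholder, summing or filter steps. No result here draws on it.

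The members and lists were chosen with earlier results of these data known. All 10 genes were named, together with Ube2h, Ypel5, Ran and up to 4 genes of smallest p per list, the 5 genes closest to Ranbp10 in profile and its 3 nearest tested neighbours on each side. The replicate numbers in the labels were checked for pairing, and deviations of libraries with the same number correlated at -0.0229, 0.00663 and 0.00313, so the main fit has no block. Alternatives were other pseudocounts, filters, scalings, eBayes settings, the replicate block, adding noncoding transcripts and leaving out each library. The 6 small RNA libraries were not used here.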

Additional observations from a re-analysis of the deposited data

How the results depend on the processing

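The count of subunit genes other than Ranbp10 past the threshold was 0 in all 15 alternatives run, and the counts for their mRNA and noncoding transcripts were 0 in all 13 run for each. The Ranbp10 log2 difference of -3.23 was -5.77 and -4.07 with pseudocounts of 0.1 and 0.5, -3.28 with equal medians, -3.29 after quantile normalization, -2.76 with noncoding transcripts added, and -3.25 to -3.20 leaving out 1 library. The count of CTLH-linked and Ran cycle genes was 0 to 1 leaving out 1 library, the 1 being Ranbp1 without PAMK 2 (-5.04). With the replicate number as a block the Ranbp10 difference was again -3.23 and 0 subunit genes passed, while 0 of all genes passed, against 7 without it. The block leaves fewer degrees of freedom. Whether same-numbered libraries share more than a number is not stated in the labels, and not every library correlated best with the one of its own number.

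Directions of genes that did not pass turned in these alternatives. With equal medians they were Armc8 -0.075, Gid4 -0.095 and Ypel5 -0.077, and after quantile normalization Armc8 -0.058, Gid4 -0.074, Ypel5 -0.078 and Ube2h -0.0042. The median of all genes was -0.026 and -0.024 under these scalings, against 0.057, and 8 of the 9 subunit genes then lay below 0. With noncoding transcripts added they were Armc8 -0.075, Mkln1 0.052 and Ube2h -0.042. Leaving out 1 library gave Armc8 -0.021 to 0.071 (turned without control 3), Gid4 -0.022 to 0.036 (without PAMK 1, PAMK 3, control 1 or control 3), Gid8 -0.057 to 0.028 (without PAMK 2 or control 2) and Mkln1 -1.15 to 0.27 (without PAMK 2 or control 3). It gave Ranbp9 -0.29 to 0.19 (without PAMK 3), Rmnd5b -0.24 to 0.056 (without PAMK 2) and Wdr26 -0.71 to 0.035 (without PAMK 3). It gave Ube2h -0.97 to 1.08 (without PAMK 2, control 1 or control 3) and Ypel5 -0.098 to 0.18 (without PAMK 1, PAMK 3, control 1 or control 2). The cause was not tested. The adjusted p of Ranbp9 transcript ENSMUST00000220601 ranged from 0.414 to 0.934, and its difference stayed below 0 in all 13 alternatives. Genes low and high within a group numbered 234 at limits of 0.1 and 5 FPKM, and 469, 479 and 617 at limits of 0.1 and 2, 0.5 and 5, and 0.2 and 2 FPKM, chosen after seeing the data. With no read counts, no value could be given a counting interval.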
